A study of Mus musculus with 10 samples.

Results

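Complex I of the respiratory chain was described here through the 43 mouse genes whose platform symbol starts with Nduf and that had a row of their own on the array. They were taken from the 30142 genes with such a row by that name alone, pseudogenes left out, and each was represented by its brightest row (all 43 had a single row). Of the 43, 33 encode subunits of complex I, 7 encode assembly factors (Ndufaf1 to Ndufaf7), and 3 are other genes of that name: Ndufa4, Ndufa4l2 and Ndufb4b. The comparison was between 4T1 cells (a long-established line from a mouse mammary carcinoma) kept in collagen gels of 2 mg/mL (low density, LD, 5 arrays) and of 3.5 mg/mL (high density, HD, 5 arrays). Both groups started from 50000 cells, had no further treatment named in the labels, and were kept in the gel for 5 days before total RNA was extracted and hybridised to Affymetrix MTA 1.0 arrays. It asks how the density of the collagen around the cells changes expression of these genes. The labels do not say whether the 5 samples of a group were separate cultures. The p-values therefore reflect how far these arrays lie apart within a group, a spread that may be technical.

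Complex I is the entry point of electrons from NADH into the mitochondrial respiratory chain. A flavin takes the electrons from NADH, a chain of iron-sulfur clusters carries them to ubiquinone, and the energy released moves protons across the inner membrane. The enzyme is L-shaped, with a peripheral arm in the matrix that holds the redox centres and a membrane arm that pumps. Core subunits carry out the reaction and have bacterial counterparts, accessory subunits surround them, and assembly factors help to build the enzyme but are absent from its finished form. Some core subunits of the membrane arm are encoded by mitochondrial DNA, the others by nuclear genes.

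Most Nduf genes were higher in the dense gels. With limma and Benjamini-Hochberg adjustment over all 17800 genes tested, 35 of 42 members rose, 1 fell and 6 did not pass the threshold of 0.05, while 31.4% of all genes tested were called higher and 19.5% lower. The remaining member, Ndufa4l2, had too low a signal to be tested. The rises were small: the median log2 change of the tested members was 0.27, against 0.055 for all genes tested, and the largest was 0.85. All 5 HD arrays lay above all 5 LD arrays for 34 of 42 members, against 21.6% of all genes tested. In no member did all HD arrays lie below all LD arrays, against 15.1% of all genes tested. In such bulk samples, a change in the share of cells of a type and a change in RNA per cell cannot be told apart.

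**Figure D1:**
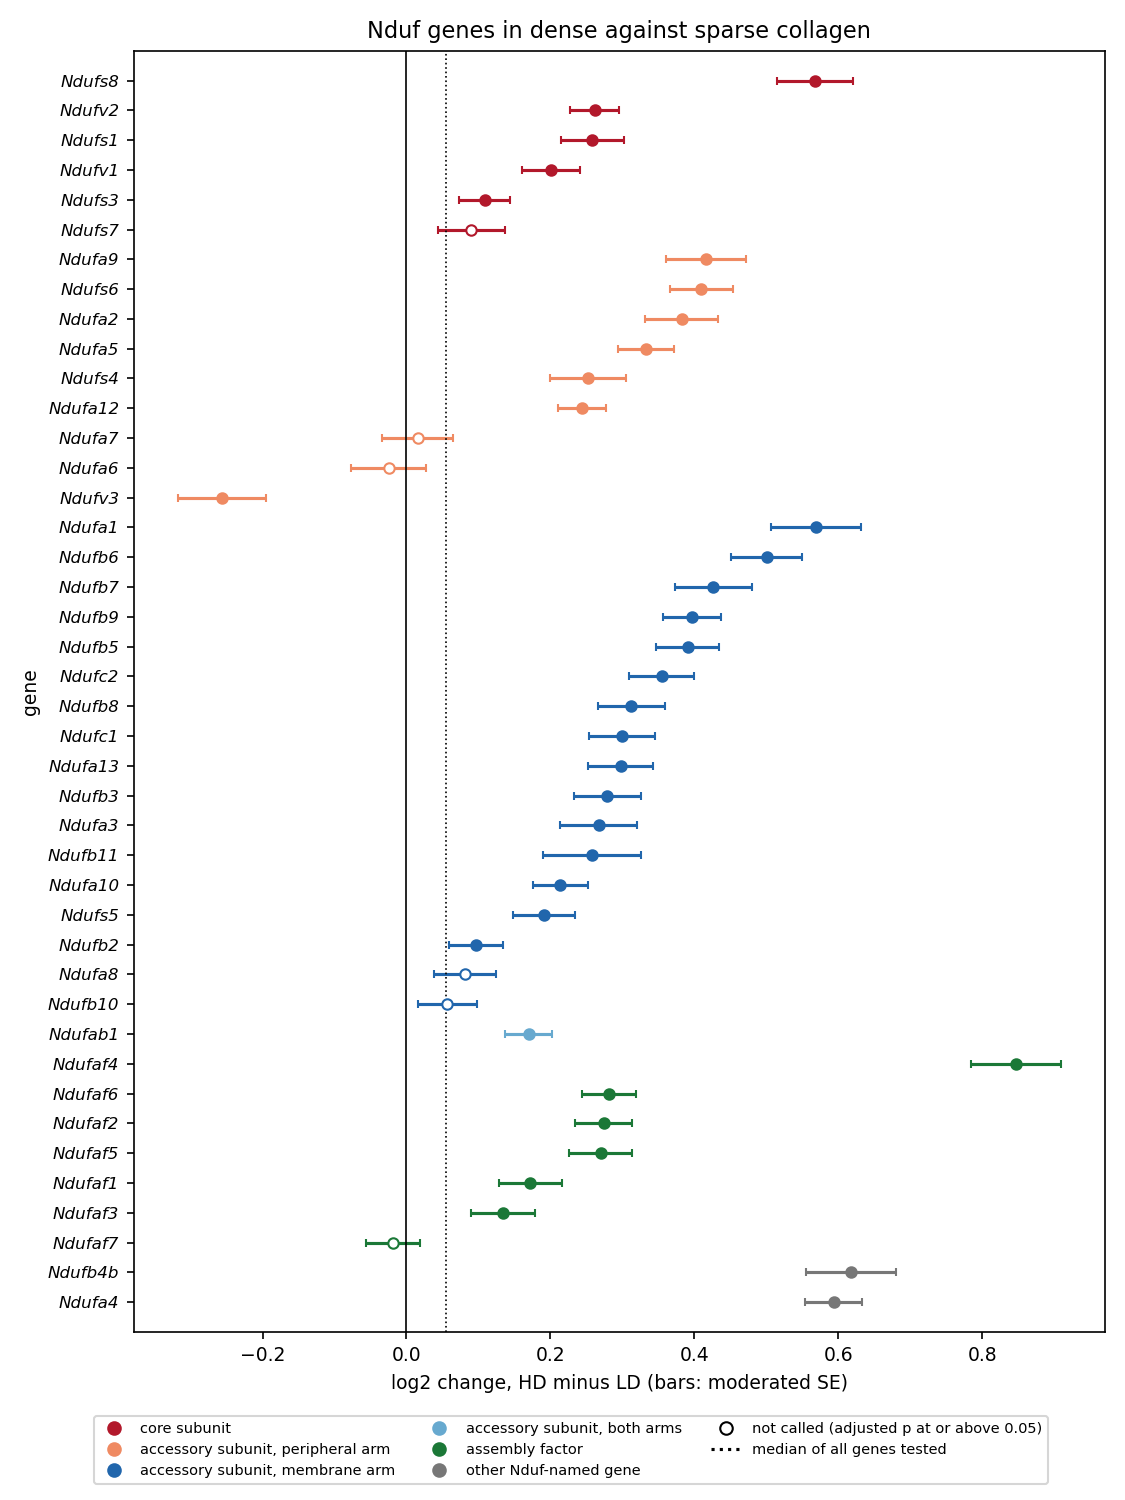
Log2 change between HD and LD (x axis, with the moderated SE) of the 42 tested Nduf genes (y axis), coloured by role; open circles did not pass the test, and the dotted line is the median of all genes tested. Ndufaf4 stands farthest to the right at 0.85, and Ndufv3 is the single filled point to the left of 0, at -0.26.

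The counts held under other scalings of the arrays. After quantile normalization 36 members rose and 1 fell, after median centring 34 and 1, and after a linear scaling on the array's control rows 34 and 1. The background moved more: 42.9% of all genes tested were called higher after quantile normalization and 49.4% after the control-row scaling. The medians under the latter were 0.28 for the members and 0.13 for all genes tested. Its basis is that control rows of the array differed between the groups. The negative control rows had a median of 5.67 ± 0.0516 on LD arrays (SD, n = 5) and of 5.42 ± 0.124 on HD arrays. The positive control rows had medians of 9.21 ± 0.0111 and 9.28 ± 0.0448. Markers of epithelial cells were high in both groups (Krt8 at 12.01 in LD and 12.04 in HD, Epcam at 10.79 and 10.19). Of these 4 markers 3 were called lower in HD, against 19.5% of all genes tested. The mean signal of the 4 markers ran from 11.38 to 11.45 over LD arrays and from 11.20 to 11.24 over HD arrays. Of 6 markers of other cell types, Ptprc read 3.09 and 3.14, at or below the background rows (3.47 and 3.63), and 2 more were under the signal floor. Cd68, a lysosomal protein of macrophages that other cells also make, fell from 8.57 ± 0.093 (SD, n = 5) to 7.83 ± 0.182. Col1a1 read 6.71 in LD and 6.80 in HD, and Pdgfrb 5.44 and 5.55. Neither of these was called (limma adjusted p = 0.12 and 0.099). The mean signal of these 6 markers ran from 5.51 to 5.60 over LD arrays and from 5.47 to 5.56 over HD arrays. The part of control rows and markers in the results was not tested.

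Sequences at the start sites were read for the members because they rose together. Of the 43 members, 38 had a window in RefSeq's promoter table (build GRCm38.p6), which spans 250 bases before to 50 bases from a transcript start that the table chose. That start was RefSeq's own gene start in 27 of the 36 members with a single window and lay elsewhere in the rest of them. Members with several windows were not checked. Distances are therefore given from the table's start. Exact matches to 6 motifs were sought on both strands. The motif CACGTG (the E-box bound by MYC) and the motif ACGTGC (of the HIF type) share letters and can overlap. The YY1 motif AAGATGGC was in 7 of 38 members (18.4%), against 2.75% of all 32851 windows and 4.72% of the 11124 genes tested here that had a window. YY1 is a zinc finger factor that binds many genes of mitochondrial proteins. All 7 matches read along the gene's own strand and began 22 to 38 bases after the table's start. They are shown with the motif in capitals, 30 bases each:

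Ndufa3, chr7:3617377-3617406, strand +: cttgtcgccgccaagaacAAGATGGCcggg
Ndufa9, chr6:126849104-126849133, strand -: cgtgaggcattgtgggagAAGATGGCggcc
Ndufb8, chr19:44555393-44555422, strand -: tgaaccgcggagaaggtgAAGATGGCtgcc
Ndufc1, chr3:51408922-51408951, strand -: aggcggagcctgcggaacAAGATGGCgccg
Ndufs4, chr13:114388048-114388077, strand -: ctggcgtttgcctacaggAAGATGGCggcg
Ndufs6, chr13:73328438-73328467, strand -: gggtcaagggtcaccggcAAGATGGCggcg
Ndufs7, chr10:80249455-80249484, strand +: tgtctgaaggccgaggccAAGATGGCggcg

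Among these 7 members, Ndufa9 rose by 0.42, Ndufs6 by 0.41, Ndufb8 by 0.31, Ndufc1 by 0.30, Ndufa3 by 0.27 and Ndufs4 by 0.25 on the log2 scale, while Ndufs7 differed by 0.09 and was not called. The motif holds the letters of a start codon, and whether the matches lie at translation starts was not tested.

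The NRF1 motif TGCGCATGC is recognised by a regulator of many respiratory genes. It was in 1.52% of all windows and in 2.96% of the tested genes with a window. Of the members, 3 of 38 held it (7.89%). These were Ndufa8, Ndufa6 and Ndufaf4. Ndufaf4, the member that rose most, held it at 2 places, at position -114 relative to the table's start and at that start itself. Its upstream region is shown with the matches in capitals:

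Ndufaf4, chr4:24897833-24898092, strand +: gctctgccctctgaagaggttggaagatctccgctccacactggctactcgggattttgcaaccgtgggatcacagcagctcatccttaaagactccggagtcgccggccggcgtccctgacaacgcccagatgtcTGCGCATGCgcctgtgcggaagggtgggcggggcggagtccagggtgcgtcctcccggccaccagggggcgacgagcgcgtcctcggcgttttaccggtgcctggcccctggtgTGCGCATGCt

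Ndufa8 and Ndufa6, the other members with this motif, had log2 changes of 0.08 and -0.02, neither of them called. The other motifs were in fewer members than the YY1 motif, and in 2 of 38 at most. CCGGAAGT (ETS type) was in 1 of 38 members (Ndufs3, 2.63%), against 3.89% of all windows and 8.05% of tested genes with a window. The E-box was in 2 (Ndufa7 and Ndufv1, 5.26%), against 7.15% of all windows and 11.0% of tested genes with a window. The HIF-type motif was in 1 (Ndufa1, 2.63%), against 5.91% and 9.13%. TCAAGGTCA, the motif of ERR receptors, was in 0 of 38 members, against 0.423% and 0.351%. The window of Ndufv3, the member that fell, held none of the 6. The median GC content of the windows was 59.2% for the members and 60.3% for the tested genes. A match of letters is a description and does not show binding.

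The nuclear core subunits rose in 5 of 6 cases, against 31.4% of all genes tested, with a median log2 change of 0.23. Ndufs8, which carries iron-sulfur clusters on the way to ubiquinone, rose most. Its log2 signal in LD replicates 1 to 5 was 9.88, 9.87, 9.87, 9.81 and 9.98, and in HD 10.43, 10.65, 10.43, 10.36 and 10.38. Every HD array lay well above every LD array, a 1.48-fold difference (a log2 change of 0.57 with an SE of 0.0532 and a limma adjusted p of 1.6e-06). Ndufv2, which holds the iron-sulfur cluster beside the flavin, read 9.27, 9.30, 9.28, 9.23 and 9.28 in LD and 9.59, 9.55, 9.49, 9.48 and 9.56 in HD. It was among the tightest members, with SDs of 0.0246 and 0.0475 (n = 5), and rose by 0.26. Ndufs1, the largest subunit and the carrier of several clusters, read 8.66, 8.75, 8.69, 8.67 and 8.78 in LD and 9.09, 8.89, 8.99, 8.91 and 8.97 in HD. It also rose by 0.26, and its highest HD array was replicate 1.

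Ndufv1 binds NADH and the flavin. Its signals were 8.57, 8.56, 8.58, 8.54 and 8.63 in LD and 8.79, 8.86, 8.83, 8.71 and 8.69 in HD, without overlap (a log2 change of 0.20 with an SE of 0.0406 and a limma adjusted p of 0.001). Ndufs3, part of the base of the ubiquinone site, read 7.92, 7.89, 7.91, 7.90 and 7.94 in LD and 8.01, 8.11, 7.99, 8.02 and 7.97 in HD. The groups lay apart by a small gap, and the rise was 0.11 ± 0.0354 SE (limma adjusted p = 0.02). Ndufs7, which holds the last cluster before ubiquinone, read 8.96, 8.98, 8.95, 8.97 and 9.003 in LD and 9.06, 9.20, 9.10, 9.03 and 8.92 in HD. The LD arrays were close together, and HD replicate 5 lay below all of them while the other HD arrays lay above. Its difference of 0.09 did not pass (limma adjusted p = 0.12), but it did without HD replicate 5 (0.13, limma adjusted p = 0.023).

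Of the 3 tested core subunits of mitochondrial DNA, ND3 rose from 12.30 ± 0.0759 (SD, n = 5) to 12.48 ± 0.0538, and ND6 fell from 11.12 ± 0.1 to 10.98 ± 0.0985. As deposited, ND3 was called higher (0.18, limma adjusted p = 0.0032) and ND6 lower (-0.15, limma adjusted p = 0.041), while ND2 differed by 0.08 (limma adjusted p = 0.26). Under the control-row scaling ND3 and ND2 turned to -0.15 and -0.27, so ND2 and ND3 have no settled direction. The ND6 call was lost without LD replicate 1, 2, 3 or 4 and without HD replicate 1, 2, 3 or 4.

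**Figure D2:**
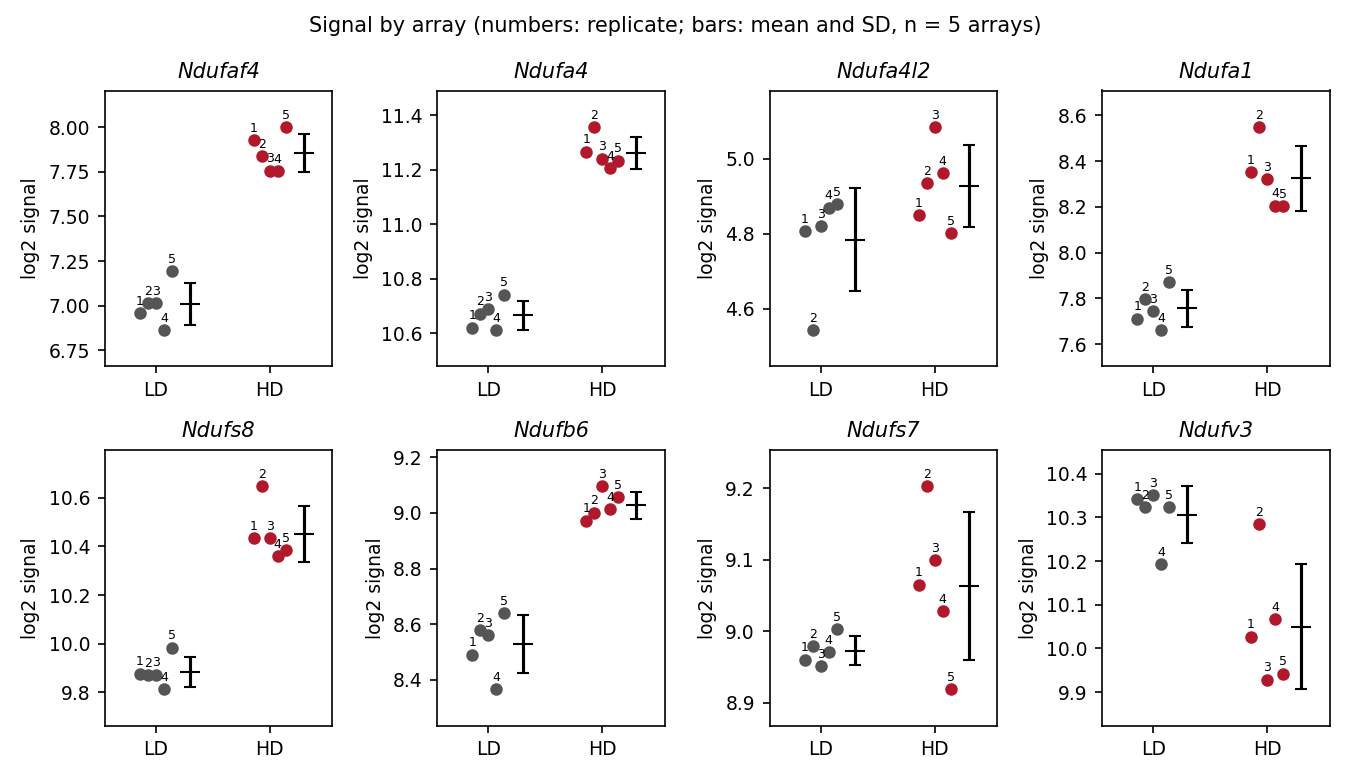
Log2 signal (y axis) of 8 Nduf genes in each of the 5 LD and 5 HD arrays, numbered by replicate, with the mean and SD beside the points; each panel has its own scale. The groups lie apart in Ndufaf4, Ndufa4, Ndufa1, Ndufs8 and Ndufb6 and overlap in Ndufa4l2, Ndufs7 and Ndufv3, where HD replicate 2 at 10.28 sits among the LD arrays.

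In the peripheral arm, 6 of 9 accessory subunits rose, 1 fell and 2 did not pass, with a median of 0.25. Of all genes tested, 31.4% were called higher and 19.5% lower. Ndufa9, a subunit that binds NADPH, rose by 0.42 (1.33-fold) and Ndufs6, a zinc-binding subunit, by 0.41 (1.33-fold). The row of Ndufs6 was assigned a second gene identifier by the platform, so a copy may share its probes. Ndufa2 rose by 0.38, Ndufa5 by 0.33, Ndufs4 by 0.25 and Ndufa12 by 0.24. Ndufa12 had the narrowest HD group of these 9 subunits, with an SD of 0.0152 (n = 5). Ndufa6 and Ndufa7 differed by -0.02 and 0.02 (limma adjusted p = 0.72 and 0.81), with SEs of 0.0523 and 0.049. In both, HD replicate 2 was the highest and HD replicate 3 the lowest of all arrays.

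Ndufv3, a small subunit bound near the flavin site, was the single member that fell. It read 10.34, 10.32, 10.35, 10.19 and 10.32 in LD and 10.03, 10.28, 9.93, 10.07 and 9.94 in HD. HD replicate 2 lay above LD replicate 4, so the groups overlapped, and the remaining 4 HD arrays lay below every LD array. The mean fell by 0.26 ± 0.0612 SE (1.19-fold lower, limma adjusted p = 0.0033). Without HD replicate 2 the difference was -0.31, and under the control-row scaling -0.40. Of the 20 alternative settings, none ended this call or turned it.

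In the membrane arm, 15 of 17 accessory subunits rose and none fell, against 31.4% and 19.5% of all genes tested. The median of the 17 was 0.30. Ndufa1, a short membrane-spanning subunit encoded on the X chromosome, read 7.71, 7.80, 7.74, 7.66 and 7.87 in LD and 8.35, 8.55, 8.32, 8.21 and 8.20 in HD. Its 1.48-fold rise was the largest of any subunit (a log2 change of 0.57 with an SE of 0.0629 and a limma adjusted p of 6.4e-06). Ndufb6 read 8.49, 8.58, 8.56, 8.37 and 8.64 in LD and 8.97, 9.0004, 9.10, 9.01 and 9.06 in HD, a 1.41-fold rise (a log2 change of 0.50 with an SE of 0.0491 and a limma adjusted p of 2.3e-06). Unlike most members, its LD arrays were more spread (SD 0.104, n = 5) than its HD arrays (0.0488).

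The other risen subunits of the membrane arm were Ndufb7 (0.43), Ndufb9 (0.40), Ndufb5 (0.39), Ndufc2 (0.35), Ndufb8 (0.31), Ndufc1 (0.30), Ndufa13 (0.30), Ndufb3 (0.28), Ndufa3 (0.27), Ndufb11 (0.26), Ndufa10 (0.21), Ndufs5 (0.19) and Ndufb2 (0.10), all as log2 changes. Ndufa13, also known as a factor in interferon-induced cell death, had no overlap between groups. The call of Ndufb2 was at the edge (limma adjusted p = 0.047) and was lost in 8 of the 10 fits that left out an array, and kept when that array was LD replicate 2 or HD replicate 5. Under the control-row scaling, Ndufb9 and Ndufa10 no longer passed, at 0.04 (limma adjusted p = 0.58) and 0.09 (limma adjusted p = 0.075). Ndufa8 and Ndufb10 had differences of 0.08 and 0.06, short of the threshold (limma adjusted p = 0.13 and 0.26). Ndufab1, the mitochondrial acyl carrier protein found in both arms, rose by 0.17 ± 0.0325 SE (limma adjusted p = 0.00066). Ndufa11, Ndufb1 and Ndufb4 were not analysed here.

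Of the assembly factors named Ndufaf, 6 of 7 rose and none fell, with a median of 0.27. Of the subunits, 27 of 33 rose, with a median of 0.26. Among all genes tested, 31.4% were called higher and 19.5% lower. The difference between the subunits and the assembly factors was not tested. Ndufaf4, which acts with Ndufaf3 on the part of the peripheral arm that binds ubiquinone, had the largest rise of all 42 tested members. It read 6.96, 7.01, 7.01, 6.86 and 7.19 in LD and 7.93, 7.84, 7.76, 7.75 and 8.001 in HD. The lowest HD array lay above the highest LD array by more than the range of either group, a 1.80-fold difference (a log2 change of 0.85 with an SE of 0.0624 and a limma adjusted p of 2.2e-07). Leaving out any array kept its change between 0.81 and 0.89. Its partner Ndufaf3 read 7.83, 7.79, 7.76, 7.74 and 7.78 in LD and 7.88, 8.06, 7.86, 7.93 and 7.84 in HD, with the groups just apart and a rise of 0.13 (limma adjusted p = 0.022).

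Ndufaf6, an early factor, read 6.60, 6.57, 6.55, 6.52 and 6.64 in LD and 6.89, 6.91, 6.80, 6.85 and 6.83 in HD. It rose by 0.28 with SDs of 0.0466 and 0.0467 (n = 5). Ndufaf2 holds the place of Ndufa12 until the NADH-binding part joins. It read 5.71, 5.74, 5.86, 5.82 and 5.82 in LD and 6.10, 6.02, 6.12, 6.07 and 6.01 in HD, a rise of 0.27. In LD this signal was close to that of the negative control rows (5.67). Ndufaf5, which modifies Ndufs7, read 6.004, 5.97, 6.02, 5.97 and 6.09 in LD and 6.23, 6.43, 6.26, 6.25 and 6.24 in HD and rose by 0.27. HD replicate 2 was its highest array by a wide gap.

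Ndufaf1, of the complex that builds the membrane arm, read 7.04, 7.18, 7.13, 7.04 and 7.10 in LD and 7.20, 7.28, 7.35, 7.19 and 7.32 in HD, with a rise of 0.17 (limma adjusted p = 0.0051). Ndufaf7, a methyltransferase, read 7.43, 7.40, 7.38, 7.39 and 7.41 in LD and 7.44, 7.47, 7.35, 7.33 and 7.33 in HD. HD arrays lay both above and below all LD arrays, and the difference of -0.02 ± 0.0373 SE did not pass (limma adjusted p = 0.7). Ndufaf8, the partner of Ndufaf5, stood on the array under an older symbol and is thus outside the 43 genes. It rose by 0.20 (limma adjusted p = 0.0083), from 7.72 ± 0.0514 (SD, n = 5) to 7.92 ± 0.123.

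Of 9 tested assembly factors with other names, 3 rose (33.3%, against 31.4% of all genes tested), 2 fell (19.5% of all genes tested fell) and 4 did not pass. Their median was 0.04, and these shares lie near those of all genes. Ecsit, a partner of Ndufaf1, rose by 0.40 (limma adjusted p = 3e-05), from 7.27 ± 0.0305 (SD, n = 5) to 7.67 ± 0.125. Acad9 and Tmem126b, of the same complex, differed by 0.12 (limma adjusted p = 0.022) and 0.04 (limma adjusted p = 0.5), and the call of Acad9 was lost without LD replicate 1 or 3 or HD replicate 1. Tmem70, which also serves the ATP synthase, rose by 0.15. Foxred1 and Dmac2 fell by 0.18 and 0.13, and both calls were lost after quantile normalization (limma adjusted p = 0.11 and 0.26) and under the control-row scaling. The Foxred1 call was also lost without LD replicate 2 or 5 or HD replicate 4 or 5. Tmem186, Timmdc1 and Nubpl, an iron-sulfur carrier for complex I, differed by 0.04, 0.004 and -0.08 (limma adjusted p = 0.37, 0.93 and 0.093). Acad9, Tmem126b, Dmac2, Tmem186, Timmdc1 and Nubpl were named after their values were seen. Whether these 9 genes differ from the Ndufaf genes was not tested.

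Of the 3 other Nduf-named genes, Ndufa4 and Ndufb4b rose and Ndufa4l2 was not tested. Ndufa4 was once counted to complex I and is now placed in complex IV. It read 10.62, 10.67, 10.69, 10.61 and 10.74 in LD and 11.27, 11.36, 11.24, 11.21 and 11.23 in HD, with no overlap and a 1.51-fold rise (a log2 change of 0.59 with an SE of 0.0397 and a limma adjusted p of 1.1e-07). Ndufa4l2 is its paralog, a HIF-1 target that lowers complex I activity in hypoxia. It read 4.81, 4.54, 4.82, 4.87 and 4.88 in LD and 4.85, 4.93, 5.08, 4.96 and 4.80 in HD, with overlapping groups. These values lay under the signal floor of 5.24 and under the negative control rows, so no change can be read from them. Ndufb4b, a copy of the subunit gene Ndufb4, read 10.33, 10.34, 10.29, 10.07 and 10.30 in LD and 10.82, 11.05, 10.75, 10.86 and 10.93 in HD, a 1.53-fold rise (a log2 change of 0.62 with an SE of 0.0621 and a limma adjusted p of 2.9e-06). Its probes may also catch Ndufb4, so the gene that rose is uncertain.

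**Figure D3:**
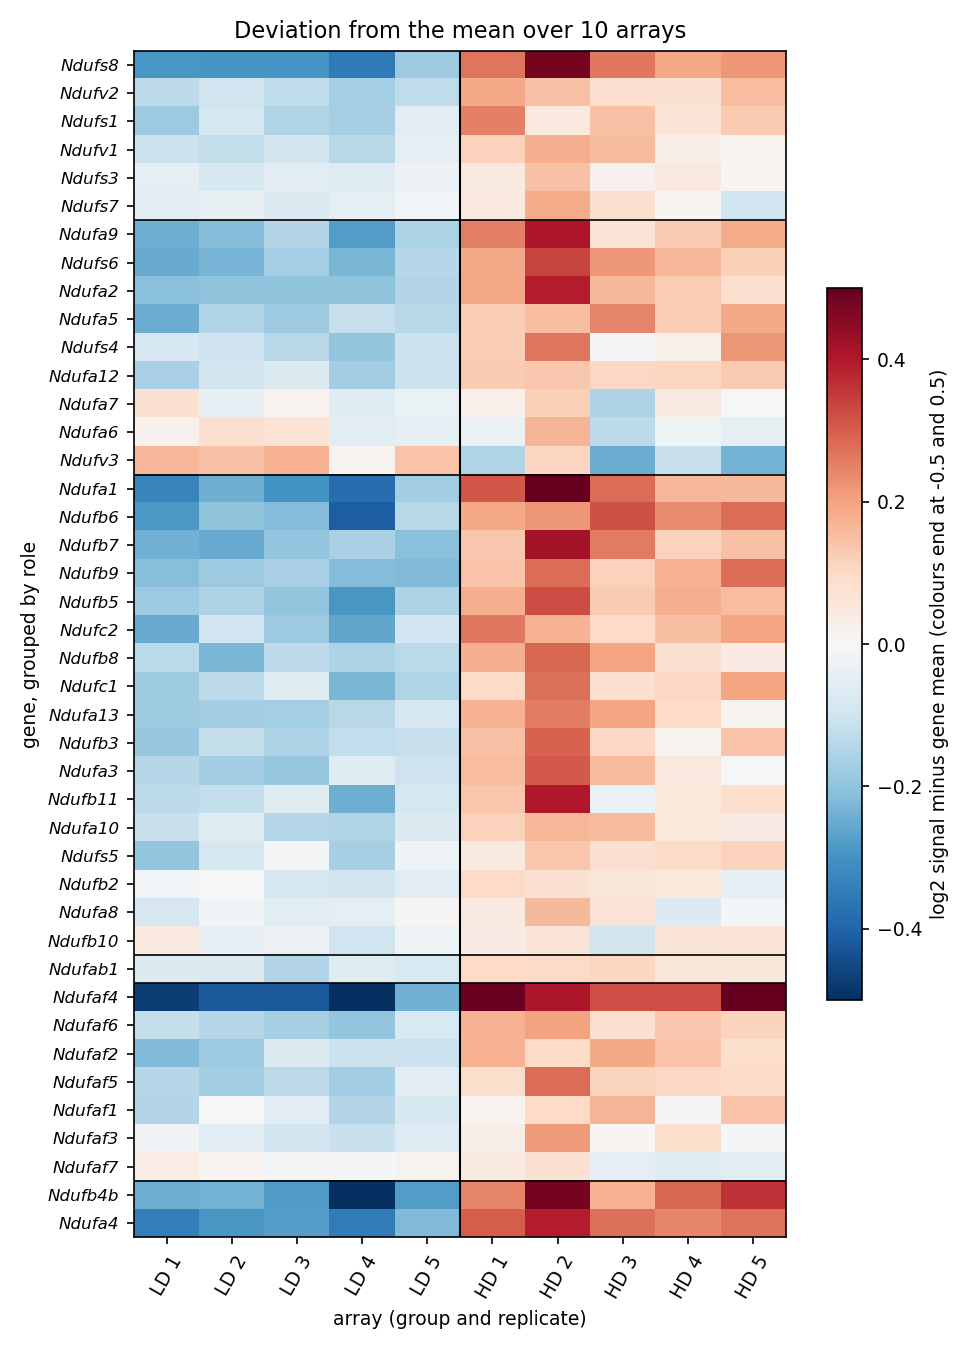
Deviation of each tested Nduf gene (rows, grouped by role) in each array (columns) from its mean over the 10 arrays, in log2 units. HD replicate 2 holds the highest HD value in 30 of 42 members, LD replicate 4 the lowest LD value in 24, and Ndufv3 runs the other way.

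The members also varied together within the groups. HD replicate 2 was the highest HD array for 30 of 42 members, against 30.8% of all genes tested, and its median deviation from the HD mean was 0.11 for the members and 0.01 for all genes. LD replicate 4 was the lowest LD array for 24 of 42 members, against 4446 of all 17800 genes tested, with a median deviation of -0.04 (-0.00401 for all genes tested). LD replicate 5 was the highest for 18 members, against 21.0% of all genes tested. The mean signal of the 33 subunits was 8.51, 8.53, 8.53, 8.48 and 8.55 in LD replicates 1 to 5 and 8.78, 8.88, 8.75, 8.73 and 8.74 in HD. HD replicate 2 stood above the other HD arrays, and the gap between the groups was larger than the spread within either. For the 7 Ndufaf genes the mean was 6.79, 6.81, 6.81, 6.76 and 6.86 in LD and 7.09, 7.15, 7.07, 7.05 and 7.08 in HD. The SD among HD arrays was larger than that among LD arrays in 81.0% of the tested members and in 62.3% of all genes tested. HD replicate 2 had the highest median of the positive control rows (9.35, against 9.24 to 9.29 in the other HD arrays), whose part in these values was not tested. Without this array 34 members were called higher and 1 lower, and their median was 0.25. Across the 42 members, the log2 change and the mean signal had a Pearson r of 0.18, a description over genes that share all arrays.

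The remaining respiratory complexes were read on the same arrays, where 31.4% of all genes tested were called higher and 19.5% lower. Of the subunits tested, 2 of 4 rose in complex II (median 0.20), 7 of 9 in complex III (0.35), 10 of 11 in complex IV (0.24, with Ndufa4 counted) and 12 of 14 in the ATP synthase (0.29). None was called lower by limma, and the lowest of them, Sdha, differed by -0.0026. In complex II the iron-sulfur subunit Sdhb rose by 0.50 and the membrane anchor Sdhd by 0.38. In complex III Uqcrq rose by 0.64, cytochrome c1 (Cyc1) by 0.44 and Uqcrb by 0.40. In complex IV, beside Ndufa4 (0.59), Cox5a rose by 0.44 and Cox6b1 by 0.42. In the ATP synthase Atp5l rose by 0.61, Atp5o by 0.44 and Atp5k by 0.43. Atp5l had 3 rows, of which the brightest was used. Of 3 supercomplex factors, 2 fell and none rose, against 19.5% and 31.4% of all genes tested. Higd1a, a hypoxia-induced protein of the inner membrane, fell by 0.64 (limma adjusted p = 2.5e-07), from 7.48 ± 0.104 (SD, n = 5) to 6.85 ± 0.0377. Cox7a2l, which joins complexes III and IV, fell by 0.29 (limma adjusted p = 4.2e-05). Whether complex I differed from these lists was not tested.

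Genes that supply complex I were described in the same way, and whether their counts differ from those of the members was not tested. Of 11 tested genes of iron-sulfur cluster assembly, 5 rose (45.5%) and 1 fell, against 31.4% and 19.5% of all genes tested. The median of the 11 genes was 0.10. Glrx5, a glutaredoxin that passes clusters on, rose by 0.58 (limma adjusted p = 1.4e-06), and Bola3 rose by 0.31. Hscb, a co-chaperone in cluster assembly, fell by 0.25 (limma adjusted p = 0.00022), a call lost under the control-row scaling (-0.08, limma adjusted p = 0.2). Of 11 tested regulators of mitochondrial biogenesis, 6 rose (54.5%) and none was called lower by limma (median 0.15). Pprc1, a coactivator related to PGC-1, rose by 0.58 (limma adjusted p = 3e-07), the mitochondrial transcription factor Tfb2m by 0.32 and Ppargc1b by 0.23. Nrf1 and Yy1, named because their motifs were sought, had differences of -0.02 and 0.05, short of the threshold (limma adjusted p = 0.64 and 0.23). Ppargc1a was under the signal floor in both groups, at 4.31 and 4.37.

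**Figure D4:**
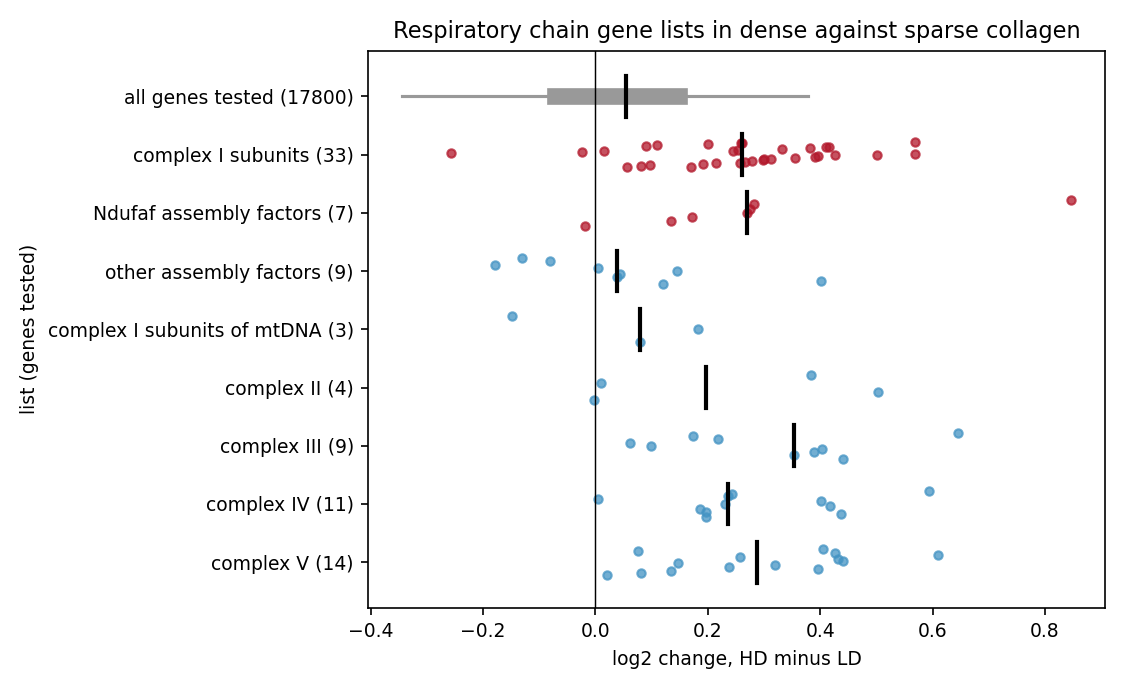
Log2 change between HD and LD (x axis) of the tested genes of each list (y axis, number of genes in brackets); points are genes, black bars medians, and the grey bar spans the 25th to 75th and the grey line the 5th to 95th percentile of all genes tested. Complex I subunits (median 0.26) and Ndufaf factors (0.27) lie near complexes III, IV and V, and other assembly factors (0.04) lie near all genes (0.055).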

How the data were processed

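The deposited table holds log2 values, made by the authors with RMA per the submitters' processing notes. Their range (1.49 to 14.34) set the log2 scale. The software, its version and the genome build stay unnamed (not given in the sources used here). Gene names came from the platform annotation and were updated through RefSeq gene IDs. A gene was its brightest row and was tested if its mean over arrays exceeded the all-row median (log2 5.24). HD and LD were compared in limma 3.58.1 (R 4.3.3, lmFit and eBayes, 2 groups of 5 arrays, two-sided, without covariates) and p-values were adjusted by Benjamini-Hochberg for 17800 genes; the test was tested on simulated data. Folds are ratios of RMA signals, which RMA compresses. The number of arrays limits the precision. No arrays were identical. Members, gene lists, motifs and alternatives were chosen with earlier results of these data known. All members may be named. Arrays are given in full for the 6 largest rises without overlap, core subunits, Ndufaf genes, Ndufa4 and Ndufa4l2, and for Ndufv3 after its value was seen. From each other list up to 3 called genes with the largest change are named, with exceptions said; cell type markers are given by level. Same-numbered arrays correlated at -0.091 to 0.22 in their deviations from the group means, so numbers were not treated as pairs.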

Additional observations from a re-analysis of the deposited data

Results flagged for a closer look

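Among 86 groups of 5 arrays (43 genes in LD and in HD), 10 held an array far from the other 4; chance flags about 1 in 20 groups. The gap to the nearest array is given as a share of the group's range. Ndufaf5 (0.876), Ndufs8 (0.746) and Ndufb5 (0.735) were highest in HD replicate 2 by such a gap, and Ndufb10 was lowest in HD replicate 3 (0.844). Ndufb4b (0.827) and Ndufv3 (0.821) were lowest in LD replicate 4, Ndufb8 (0.773) and Ndufa4l2 (0.788) in LD replicate 2, and Ndufab1 in LD replicate 3 (0.814). Ndufa2 was highest in LD replicate 5 (0.871). The calls of the tested genes among them kept their side of the threshold without these arrays.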

How the results depend on the processing

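Of the 36 called members, 33 kept their call under every one of the 20 alternatives that gave a value, among them 10 fits without 1 array. The exceptions were Ndufb2, Ndufb9 and Ndufa10. With a replicate block, 34 members rose, 26 of them subunits, and 1 fell; Ndufb2 (0.10, limma adjusted p = 0.057) lost its call. Over all alternatives 31 to 36 members rose, the fewest with the stricter filter on dim rows (log2 6.96), which tests 38 members. With that filter 3 of 4 assembly factors rose and their median was 0.153, since the dim Ndufaf2, Ndufaf5 and Ndufaf6 are left out. Under the control-row scaling their median was 0.431; the cause was not tested. ND3 and ND2 turned to -0.15 and -0.27 there. Ndufb10 passed after quantile normalization (0.14) and the control-row scaling (0.17). Averaging rows, array weights and ordinary t statistics changed no member's call.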
